A study of Rattus norvegicus with 7 samples.

Results

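Collagens and laminins are the structural proteins of the extracellular matrix. Each collagen molecule is a triple helix of 3 alpha chains and each laminin a cross of 1 alpha, 1 beta and 1 gamma chain, and every chain has a gene of its own. Fibrillar collagens build the fibres of the meninges and vessel walls, whereas collagen IV and laminins form the basement membrane under the endothelium, around mural cells and at the pial surface, to which the endfeet of Bergmann glia are anchored. Loss of laminin chains is known to disturb the layering of the cerebellar cortex.

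The chains were taken as all genes whose symbol begins with Col or Lam in the pattern of collagen alpha chains (Col1a1) or laminin chains (Lama1). RefSeq's table of rat genes (assembly GRCr8) lists 56 such symbols, 1 of them a pseudogene of Lamb2. Probes carry accessions, and 41 probes matched 28 of these genes, out of 15443 named genes with a probe. The other 28 genes had no probe matched through its accession, among them Col4a2, Col5a2, Col6a1, Lama2, Lama4 and Lamb1. A further 3 genes, Col13a1 and Lamc3 among them, had probes well above background on at most 2 of the 7 arrays and were left out by the filter, which asked for at least 3. This left 25 measured genes of 11966, and these are not all members of either family.

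Cerebellum was taken from female Wistar rat pups aged 21 days and its total RNA was measured on 1-colour Agilent microarrays. The control group (CTRL, n = 4) was born to dams on a standard diet. The methyl donor deficiency group (MDD, n = 3) was born to dams whose diet was deficient in folate and in vitamin B12 and had less choline. Both diets ran from 1 month before pregnancy to weaning at postnatal day 21, and no other treatment or allele is named. The labels name each sample a biological replicate and give neither dam nor litter, so p-values reflect the spread between these samples. Values are log2 signals relative to the 75th percentile of the array, so they can be set against each other for 1 gene across arrays and not between genes.

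Between 74.1% and 79.6% of the spots of an array were well above background, 0 were saturated, and the number of arrays limits the precision. Of the cerebellar markers, 11 of 12 for granule neurons and 9 of 10 for Purkinje cells were measured. Of the forebrain markers Tbr1 and Neurod6, the first was above background on 0 arrays and the second on all 7. In whole tissue, fewer cells of a type and less RNA per cell cannot be told apart.

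The question put to the data was whether matrix chains differed between pups of deficient and of control dams. Of the 25 chains, Lamb3 was higher and Col11a2 lower in MDD, and 23 did not pass (limma, p-values adjusted by Benjamini-Hochberg over all 19991 features, which are genes and unnamed probes, threshold 0.05). That is 8% of the chains, against 20.4% of everything tested, and by direction 12.7% of everything tested was higher and 7.72% lower. At an unadjusted p under 0.05 there were 8 chains, where 38.8% of everything tested had one. The groups did not overlap for 6 of the 25 (24%), against 36.5% of everything tested. No chain reached a 2-fold change. The median log2 change of the 25 was -0.14 (-0.09 without Col4a4, which was above background on 3 of 4 CTRL and 1 of 3 MDD arrays), against -0.03 over all features tested, with 15 lower and 10 higher means.

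All 3 MDD arrays and CTRL replicate 4 lay in row 2 of the slide, and the other controls in row 1. With the row as a block 0 of the 19991 features were higher and 1 lower, and none of the chains passed (adjusted p = 0.204 for Lamb3 and 0.138 for Col11a2). Among the arrays of row 2 alone 1 feature was higher and 6 lower. The changes there were 0.59 for Lamb3, -0.79 for Col11a2 and -0.60 for Col4a1, and -0.37, -0.11 and -0.45 for Col1a1, Col1a2 and Col3a1, each against the single control, and did not pass.

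**Figure D1:**
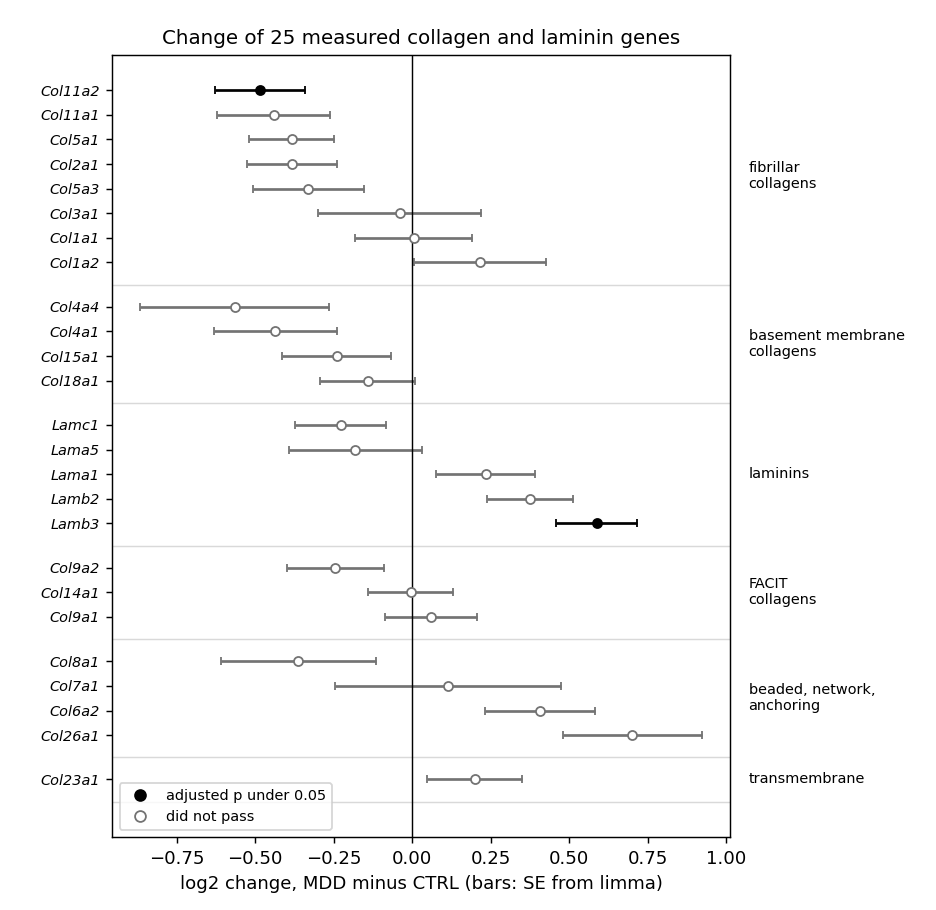
Log2 change, MDD minus CTRL, of each of the 25 measured chains, by structural class, with bars for the SE from limma. Col11a2 at -0.48 and Lamb3 at 0.59 are the filled points that passed; collagen I and III chains lie near 0, where their sign changed with the scaling.

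Fibrillar collagens are made as procollagens, trimmed outside the cell and packed into striated fibres, in which collagens V and XI are minor partners that set fibre diameter. Of 8 measured fibrillar genes 0 were higher and 1 lower, 12.5% against 20.4% of everything tested, with a median log2 change of -0.36 against -0.03. The 5 minor or cartilage-type chains had changes between -0.48 and -0.33, whereas those of collagen I and III ran from -0.04 to 0.22. This division was made after the values were seen. The 5 chains kept a lower mean in MDD under each of the 18 alternatives tried. These alternatives reuse the same arrays and some give the same estimates, so their number is no separate support. The median of all 8 shrank to -0.17 with normexp background correction and -0.21 in the authors' deposited table. With the trends in gene length and signal removed it was -0.16. It was -0.52 with the slide row as a block, where Col1a1 (-0.37) and Col3a1 (-0.45) were lower than Col2a1 (-0.24).

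Col11a2 encodes the alpha 2 chain of collagen XI, which is best known from cartilage. Its log2 signal was -0.29, -0.30, -0.32 and 0.10 in CTRL replicates 1 to 4 and -0.80, -0.61 and -0.65 in MDD replicates 1 to 3. All 3 MDD arrays lay below all 4 controls, and CTRL replicate 4 stood above the other controls. The group means were -0.20 ± 0.20 (SD, n = 4) and -0.69 ± 0.10 (SD, n = 3), a 1.40-fold lower level (log2 -0.48, SE 0.14, limma adjusted p = 0.0461). A further Col11a2 probe gave a change of -0.58 (SE 0.17). The call was marginal: leaving out any 1 array lifted the adjusted p to between 0.0546 and 0.108, quantile normalization to 0.0501, median scaling to 0.0607 and no filter to 0.0936.

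Since the diet bears on the supply of methyl groups, the CpG dinucleotides of the 250 bases upstream of the start site are shown for both called chains. DNA methylation was not measured in these samples. Capitals mark CpG, the sequences are RefSeq's on GRCr8, and each is written 5′ to 3′ in the direction of the gene. Col11a2 lies at chr20:4817649-4817898 on the minus strand and Lamb3 at chr13:107362303-107362552 on the plus strand.
Col11a2: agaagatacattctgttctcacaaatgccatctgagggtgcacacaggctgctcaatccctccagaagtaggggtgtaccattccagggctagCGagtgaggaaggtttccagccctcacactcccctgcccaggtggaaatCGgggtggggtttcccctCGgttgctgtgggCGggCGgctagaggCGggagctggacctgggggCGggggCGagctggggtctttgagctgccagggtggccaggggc
Lamb3: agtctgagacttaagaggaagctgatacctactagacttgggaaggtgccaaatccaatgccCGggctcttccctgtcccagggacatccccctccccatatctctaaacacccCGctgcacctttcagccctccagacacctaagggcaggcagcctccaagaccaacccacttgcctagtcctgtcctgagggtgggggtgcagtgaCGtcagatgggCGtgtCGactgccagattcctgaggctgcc
The Col11a2 window holds 8 CpG and the Lamb3 window 5. Of 27457 genes with such a window, 56.0% have fewer CpG than Col11a2 and 42.9% fewer than Lamb3, so neither is extreme. The GC box GGGCGG, a binding site of Sp1, was found on either strand in the Col11a2 window and in 32.4% of all windows. The CCAAT box CCAAT was found in the Lamb3 window and in 34.3% of all. Neither window holds TATAAA, which 13.1% of all windows hold.

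Col5a1, the main chain of collagen V, had log2 signals of -3.07, -3.17, -2.86 and -2.76 in CTRL and of -3.32, -3.39 and -3.34 in MDD. The groups did not overlap and the MDD arrays were close together (SD 0.04), yet the change of -0.38 did not pass (SE 0.13, limma adjusted p = 0.0738). Col2a1, the collagen of cartilage, likewise separated the groups, with -3.75, -3.67, -3.38 and -3.80 in CTRL and -4.20, -3.97 and -3.92 in MDD (change -0.38, SE 0.14, limma adjusted p = 0.0899). Both were singled out for groups that do not overlap, after their values were seen. For Col11a1 the change was -0.44 (SE 0.18, limma adjusted p = 0.110), and its 3 probes lay between -0.54 and -0.31. Col5a3 had a change of -0.33 (SE 0.18, limma adjusted p = 0.198).

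Collagen I and III make up most of the fibre mass of meninges and vessel walls. Col1a1 stood at 1.24, 1.68, 1.67 and 2.03 in CTRL and at 1.61, 1.81 and 1.56 in MDD. Its partner chain Col1a2 stood at 2.01, 2.80, 2.64 and 2.92 in CTRL and at 2.76, 2.78 and 2.87 in MDD. Col3a1 stood at -0.62, -0.06, 0.12 and 0.36 in CTRL and at -0.24, -0.37 and 0.35 in MDD. CTRL replicate 1 was the lowest array and CTRL replicate 4 the highest for each of these 3 genes, and the MDD arrays lay within the range of the controls. The changes were 0.01 for Col1a1 (95% interval -0.42 to 0.43), 0.22 for Col1a2 (-0.27 to 0.70) and -0.04 for Col3a1 (-0.63 to 0.55), so the interval of Col1a1 runs from 1.34-fold lower to 1.35-fold higher in MDD. The sign of all 3 turned in some alternatives, and quantile normalization, normexp and the deposited table gave all 3 a lower mean in MDD.

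**Figure D2:**
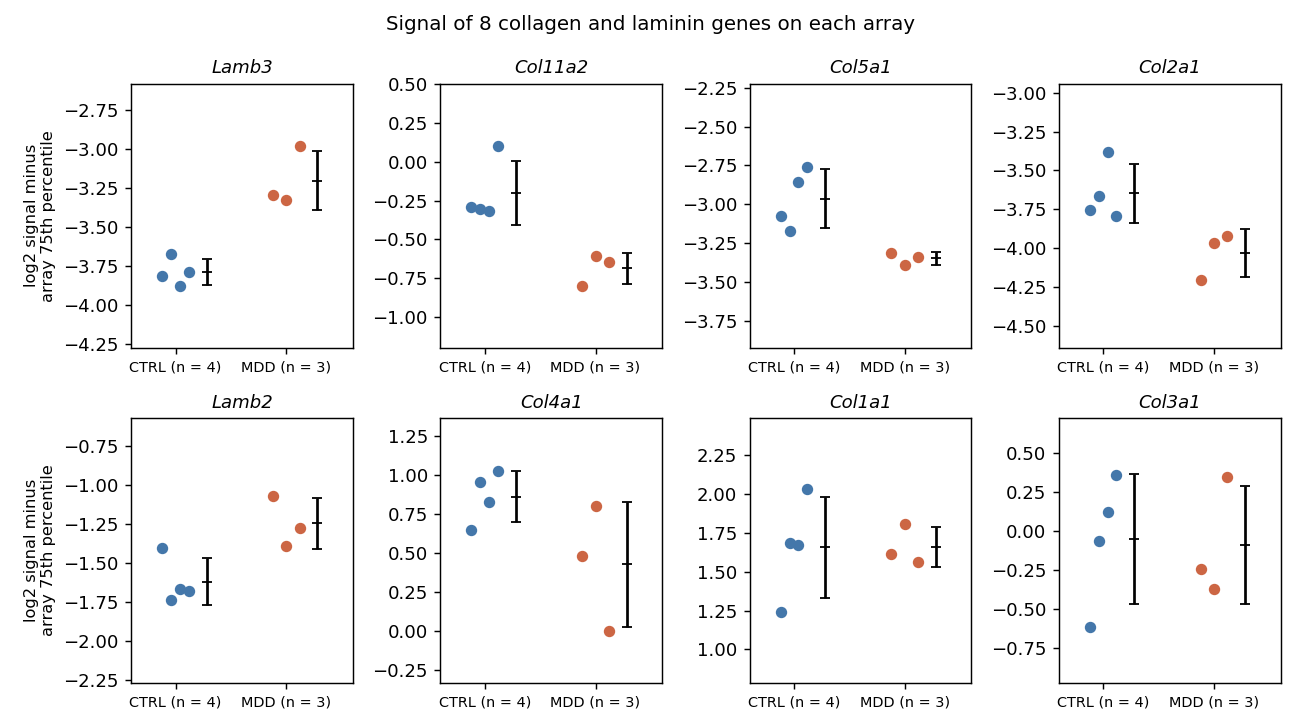
Log2 signal relative to the array's 75th percentile of 8 chains on each array; points are arrays, bars the mean and SD of the group, and every panel spans the same number of log2 units. Lamb3, Col11a2, Col5a1, Col2a1 and Lamb2 show groups that do not overlap, while Col4a1, Col1a1 and Col3a1 overlap.

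Basement membrane genes, the collagens IV, XV and XVIII with the laminins, did not move together. Of 9 measured, Lamb3 was higher, 0 were lower and 8 did not pass, so 11.1% were called against 20.4% of everything tested. Their median log2 change was -0.18 (-0.16 without Col4a4). The 4 collagens of the group all had lower means in MDD and 3 of the 5 laminins higher ones. Set beside the fibrillar collagens, with their median of -0.36, the basement membrane genes ran over a wider range, from -0.56 to 0.59. Without Col4a4, which was near background, that range was -0.435 to 0.59. No test was made of one set of genes against the other, since genes are not replicates of a diet.

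Lamb3 encodes the beta 3 chain, which pairs with the Lama3 chain in a laminin of epithelial basement membranes such as that of skin. The log2 signal was -3.81, -3.68, -3.88 and -3.79 in CTRL and -3.30, -3.33 and -2.98 in MDD. Every MDD array was above every control, and the controls were close together. The group means were -3.79 ± 0.08 (SD, n = 4) and -3.20 ± 0.19 (SD, n = 3), 1.5-fold higher in MDD (log2 0.59, SE 0.13, limma adjusted p = 0.0212). No probe was matched to Lama3. The change was 0.69 with quantile normalization and 0.45 in the deposited table, and the call held in both. It was lost without CTRL replicate 1, 3 or 4 (adjusted p = 0.0522, 0.0628 and 0.0636) and with no filter (0.0515).

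Lamb2, the beta chain of vascular and synaptic laminins, also separated the groups, with -1.40, -1.74, -1.67 and -1.68 in CTRL and -1.07, -1.39 and -1.28 in MDD. The gap between the nearest arrays of the groups was small, and the change of 0.38 did not pass (SE 0.14, limma adjusted p = 0.0819). Lamc1, the gamma chain of most laminins, stood at 0.57, 0.47, 0.74 and 0.69 in CTRL and at 0.39, 0.62 and 0.15 in MDD. Its groups overlapped (change -0.23, SE 0.15, limma adjusted p = 0.277), and its other probe gave -0.13 (SE 0.19). Lama1, the alpha chain of the pial basement membrane, had a change of 0.23 (SE 0.16) and Lama5, an alpha chain of vessel walls, one of -0.18 (SE 0.21).

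Col4a1 encodes a chain found in nearly all basement membranes. It stood at 0.65, 0.96, 0.83 and 1.02 in CTRL and at 0.48, 0.80 and 0.00 in MDD. MDD replicate 3 was the lowest of the 7 arrays and MDD replicate 2 lay among the controls. The change was -0.43 (SE 0.20, limma adjusted p = 0.140), with a 95% interval from -0.88 to 0.01, and a second probe gave -0.22 (SE 0.18). Without MDD replicate 2 the change was -0.62 (adjusted p = 0.0457), and without MDD replicate 3 it was -0.22. Col4a1 and Col4a2 start head to head, and no Col4a2 probe was matched, so only 1 side of the pair was measured. The 76 bases between both start sites, at chr16:84885521-84885596 on the plus strand of GRCr8 (RefSeq), are shown because they serve both genes, with CpG in capitals.
Col4a1-Col4a2: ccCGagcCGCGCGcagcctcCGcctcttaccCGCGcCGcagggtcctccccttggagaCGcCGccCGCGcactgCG
They hold 13 CpG. The 250 bases upstream of Col4a1 hold 33, more than 96.2% of all windows and the most among the 19 measured chains with a window, whose median was 11 against 6 for all genes. Col9a1 had 0.

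Col4a4, a chain of specialised basement membranes, stood at -5.63, -5.88, -5.37 and -5.72 in CTRL and at -5.66, -5.97 and -7.02 in MDD. It was near background, being above it on 3 of 4 CTRL and 1 of 3 MDD arrays, and the groups overlapped (change -0.56, SE 0.30, limma adjusted p = 0.196). Col15a1 and Col18a1, the collagens that link the basement membrane to the tissue beneath, had changes of -0.24 (SE 0.17) and -0.14 (SE 0.15).

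Among the remaining collagens 0 of 8 passed, where 20.4% of everything tested did. Col26a1, a secreted collagen with little known function, had the largest change of the 25 chains. It stood at -2.02, -1.26, -1.30 and -1.28 in CTRL and at -0.74, -1.05 and -0.51 in MDD, so that every MDD array was above every control. Its change was 0.70 (SE 0.22, limma adjusted p = 0.0557), and CTRL replicate 1 lay well below the other controls, without which it was 0.52. Col26a1 passed with normexp (adjusted p = 0.0263), in the deposited table (0.0297) and among features above background on all arrays (0.0429). Its other probe, above background on 6 of 7 arrays, gave 0.16 (SE 0.26), and the mean of both probes was 0.43 (adjusted p = 0.2). With no filter Col26a1 did not pass (0.107). When 1 array was left out it passed only without MDD replicate 2 (0.042), and without MDD replicate 3 the adjusted p was 0.15. Col6a2, a chain of the beaded filaments around vessels and meningeal cells, stood at -0.08, 0.12, 0.27 and 0.46 in CTRL and at 0.54, 0.37 and 0.89 in MDD. MDD replicate 2 overlapped the controls (change 0.41, SE 0.18, limma adjusted p = 0.125). Col8a1, a network collagen of vessels, had a change of -0.36 (SE 0.25) and Col7a1, the anchoring fibril collagen, one of 0.11 (SE 0.36).

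FACIT collagens sit on the surface of fibres, and 3 of the 10 listed were measured, with changes from -0.24 to 0.06. Col9a2 stood at 1.53, 1.12, 1.28 and 1.56 in CTRL and at 1.09, 1.32 and 0.98 in MDD (change -0.24, SE 0.15, limma adjusted p = 0.267). Its partner in collagen IX, Col9a1, stood at -2.33, -2.48, -2.39 and -2.60 in CTRL and at -2.60, -2.45 and -2.12 in MDD (change 0.06, SE 0.15). The groups overlapped for both, and the 2 kept probes of Col9a1 differed in sign (0.06 and -0.25). Col14a1 had a change of 0.00 (95% interval -0.32 to 0.31). The membrane-spanning Col23a1 stood at -3.08, -3.34, -3.34 and -3.35 in CTRL and at -3.24, -2.78 and -3.22 in MDD. Its change was 0.20 (SE 0.15, limma adjusted p = 0.358), and 0.48 with the trends in gene length and signal removed (adjusted p = 0.0391). Of the 8 chains with several kept probes, 6 had 1 direction on all of them, and Col1a1 (0.01 and -0.19) and Col9a1 did not.

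The spread between arrays differed from chain to chain. The median SD of the 25 was 0.21 over the CTRL arrays and 0.24 over the MDD arrays, against 0.16 and 0.25 over all features tested. The SD was larger in MDD for 13 chains and larger in CTRL for the others. Col1a2 had an SD of 0.40 in CTRL and 0.06 in MDD, whereas Col4a1 and Col4a4 went the other way, with 0.17 and 0.40 and with 0.22 and 0.71. Col7a1 varied widely in both groups (0.48 and 0.71).

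**Figure D3:**
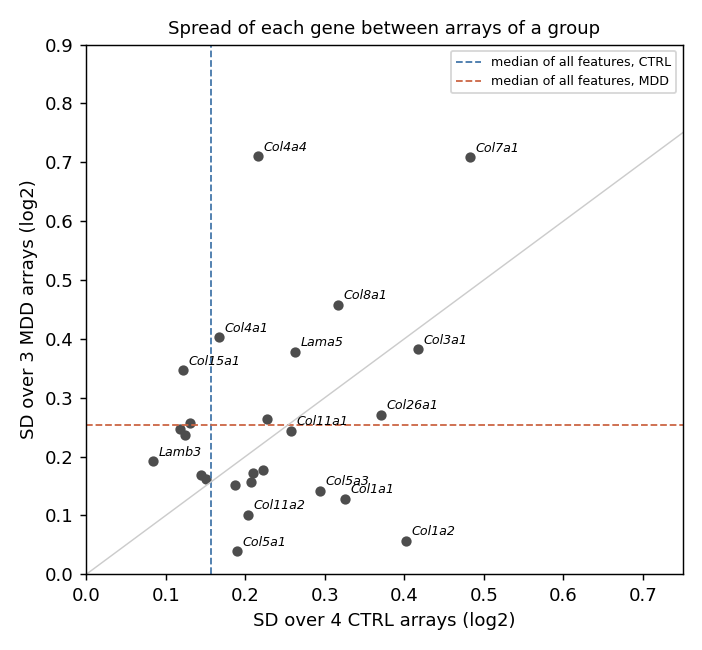
SD of each of the 25 chains over the 4 CTRL arrays (x axis, log2) and over the 3 MDD arrays (y axis, log2); dashed lines are the medians over all features tested, 0.16 and 0.25, and the grey line marks equal spread. Col1a2 (0.40 and 0.06) lies far below the line and Col4a4 (0.22 and 0.71) far above it.

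Markers of cells that make these chains were read on the same arrays. Of 15 meningeal fibroblast markers 3 were higher and 0 lower in MDD (Islr 1.61-fold, Mgp 1.52-fold and Slc22a6 1.75-fold, limma adjusted p = 0.0277, 0.0361 and 0.0375), a share of 20% against 20.4% of everything tested, with a summed signal of 14.8 to 23.3 times the array's 75th percentile in CTRL and 19.9 to 32.3 in MDD. The 3 calls were lost when any 1 CTRL array, or MDD replicate 1 or 3, was left out (adjusted p from 0.0604 to 0.102). With the trends in gene length and signal removed the changes were 0.38 for Islr (adjusted p = 0.0877), 0.25 for Mgp (0.245) and 0.63 for Slc22a6 (0.0771). Of 14 endothelial markers 1 was higher, the tight junction gene Cldn5 at 1.6-fold (limma adjusted p = 0.0180), and 0 were lower (7.14% called, sum 8.38 to 10.1 and 9.24 to 10.6). The change of Cldn5 went from 0.68 to 0.21 with the trends removed (adjusted p = 0.201), and its call was lost without CTRL replicate 3 (0.0532) or 4 (0.0535). Of 12 mural markers 0 passed (sum 4.56 to 5.10 and 4.90 to 5.91), and of 9 choroid plexus markers 0 (98.4 to 133.8 and 115.5 to 274.1). The brightest genes of a list weigh most in such sums. That of the choroid plexus was mostly Ttr (log2 signal 6.59 to 7.03 in CTRL and 6.82 to 8.07 in MDD, limma adjusted p = 0.0909). All meningeal and mural markers were above background on every array. Abcb1a and Esm1 of the endothelial list and Slc4a5 of the choroid plexus list were not. CTRL replicate 1, the lowest array for collagen I and III, was also lowest of the 7 in the mean of the meningeal markers (-1.02 on the log2 scale) and in the blood gene Hbb (4.97, against 5.49 to 7.13 on the others). The other arrays kept this order only in part. Among the controls, CTRL replicate 4 was highest for the meningeal markers (-0.588) and for collagen I and III (1.77). MDD replicates 1 and 3 were the highest for the meningeal markers (-0.21 and -0.22). Their means for collagen I and III were 1.38, the lowest after CTRL replicate 1 (0.88), and 1.59, the highest after CTRL replicate 4. MDD replicate 3 was the highest for Hbb, and MDD replicate 2 the lowest for the choroid plexus markers (-2.12). Of 10 microglia markers 6 were higher and 1 lower (70% called), of 11 granule neuron markers 1 was higher and 4 lower (45.5%), and of 9 Purkinje cell markers 1 was higher and 2 lower (33.3%). Of 10 markers each, 1 was higher for astrocytes and Bergmann glia and 1 lower for oligodendrocytes (10% each). Over everything tested 12.7% was higher and 7.72% lower. The part of tissue makeup in the results for the chains was not tested.

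**Figure D4:**
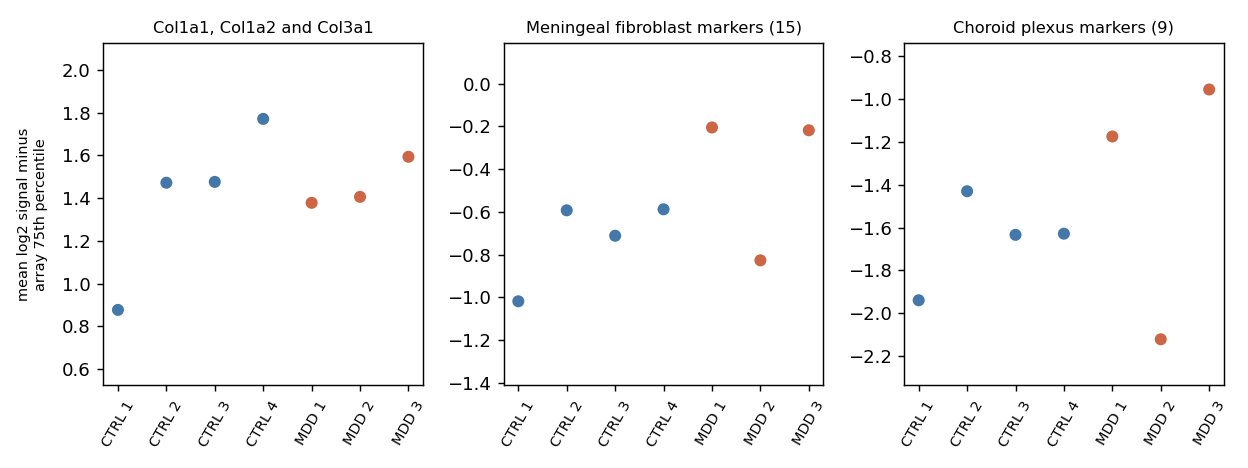
Mean log2 signal relative to the array's 75th percentile, on each of the 7 arrays, of Col1a1, Col1a2 and Col3a1 and of the marker lists for meningeal fibroblasts and choroid plexus. CTRL replicate 1 is lowest in the first panel (0.88) and in the second (-1.02), and MDD replicate 2 in the third (-2.12). MDD replicates 1 and 3 are highest in the second panel (-0.21 and -0.22). In the first they stand at 1.38, next to lowest, and at 1.59. CTRL replicate 4 is the highest control in both panels.

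Genes that act with the chains were read from 4 lists. Of 9 measured partners in the basement membrane 0 passed, where 20.4% of everything tested did. Nid2, which bridges laminin and collagen IV, had the smallest p, with a change of -0.48 (SE 0.15, limma adjusted p = 0.0592) on the brighter of its probes and -0.86 (SE 0.20) on the other, which was above background on 3 of 7 arrays. Its change ran from -0.30 with the trends in gene length and signal removed (adjusted p = 0.177) to -0.67 for the mean of both probes (0.0205). It was -0.34 without MDD replicate 1 (0.142) and -0.59 without MDD replicate 2 (0.0347), and it also passed among features above background on all arrays (0.0480). Of 23 genes of collagen synthesis and processing, 1 was higher and 2 lower, 13.0% against 20.4% of everything tested. Sec23a, a coat protein of the vesicles that carry procollagen out of the endoplasmic reticulum, was 1.82-fold lower (log2 signal -2.43 ± 0.19 in CTRL and -3.30 ± 0.22 in MDD, SD, n = 4 and 3, limma adjusted p = 0.0127). Crtap, part of a collagen prolyl hydroxylase complex, was 1.71-fold lower on the probe that stood for it (limma adjusted p = 0.0391) and had a change of 0.43 (SE 0.26) on its other probe. Fkbp10, a collagen chaperone, was 1.43-fold higher (limma adjusted p = 0.0345). The call of Sec23a held when any 1 array was left out. It was lost with the slide row as a block (adjusted p = 0.196) and with the replicate number as a block (0.0667), where 1 and 0 of 19991 features passed. Those of Crtap and Fkbp10 were lost without CTRL replicate 2, 3 or 4 or MDD replicate 1 or 3 (adjusted p up to 0.0969). Crtap also lost its call without CTRL replicate 1 (0.0883). With no filter Crtap and Fkbp10 did not pass (0.0807 and 0.0744), and the mean of both Crtap probes gave -0.17 (0.441).

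Of 13 matrix receptors 0 passed, where 20.4% of everything tested did. Bcam, a receptor of laminin alpha 5, had the smallest p (change 0.60, SE 0.23, limma adjusted p = 0.0898). Its change was 0.78 without MDD replicate 2 (adjusted p = 0.0461) and 0.29 without MDD replicate 3 (0.110), the highest array for it. Of 16 matrix proteases and their inhibitors 3 were higher and 1 lower, 25% against 20.4%. The metalloprotease inhibitors Timp2 and Timp4 were 1.62-fold and 1.65-fold higher (SE of log2 0.19 and 0.17), and the membrane-anchored protease Mmp17 was 1.40-fold higher (SE 0.13). Adamts5, a proteoglycan-cleaving protease above background on 2 of 3 MDD arrays, was 1.64-fold lower (SE 0.17). The change of Adamts5 was -0.24 with normexp and -0.29 in the deposited table, and its call was lost in both, with quantile normalization and with the trends removed (adjusted p from 0.0538 to 0.0788). Limma adjusted p was 0.0380 for Timp2, 0.0267 for Timp4, 0.0397 for Mmp17 and 0.0245 for Adamts5. Each of these 4 calls was lost when any 1 of the 4 CTRL arrays was left out, and those of Timp2 and Mmp17 also without MDD replicate 1 or 3 (adjusted p from 0.0505 to 0.0999). The call of Timp2 was also lost with quantile normalization (0.0780), normexp (0.0547), the deposited table (0.0539) and the trends removed (0.0509). For Timp4 the change with the trends removed was 0.38 (0.113). With no filter all 4 calls were lost (0.0571 to 0.0836).

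Most chains are long genes, and 22 of the 25 were longer than the median named gene. In these arrays the change fell with genomic length across named genes (Spearman's rho -0.40, n = 11966 genes, which share arrays and are not replicates), while over the 25 chains rho was -0.13. With each array's trend in length and signal removed, the median of the 25 moved from -0.14 to -0.01, that of the fibrillar collagens from -0.36 to -0.16 and that of the basement membrane genes from -0.18 to -0.01. Lamb3 (0.74), Col26a1 (0.93) and Col23a1 (0.48) were then called higher and 0 chains lower, where 11.2% of the 11965 genes fitted were called. Col11a2 had a change of -0.44 there and did not pass (adjusted p = 0.0668).

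**Figure D5:**
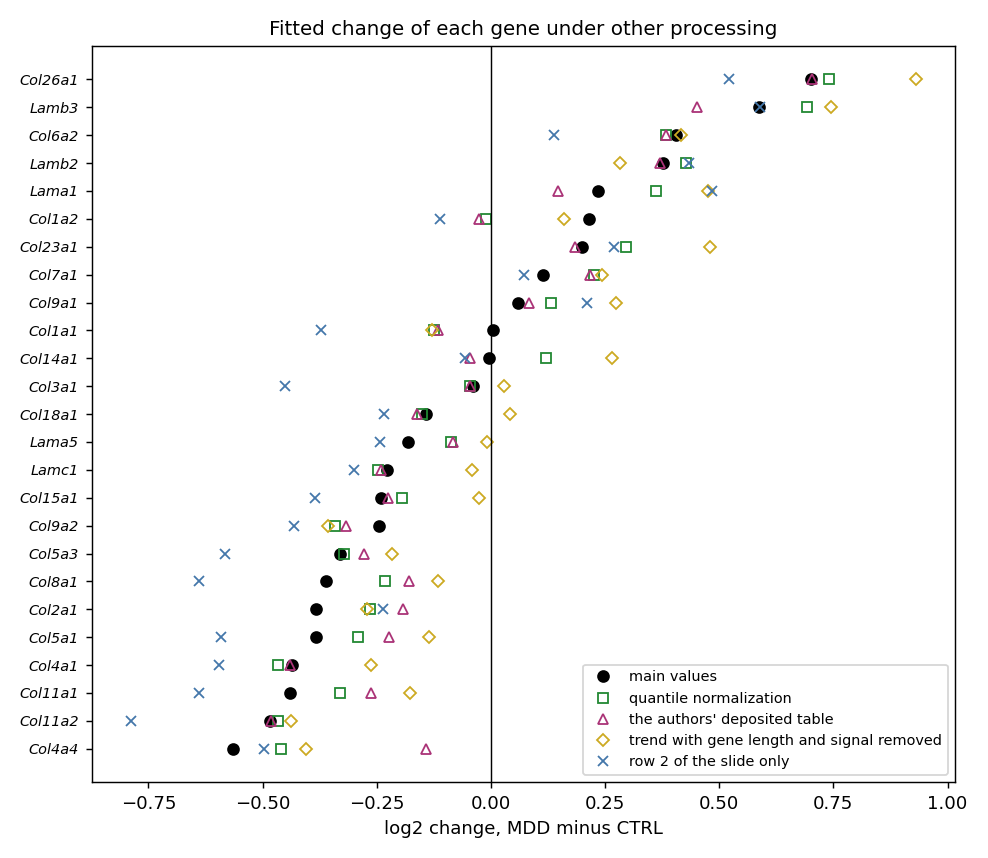
Log2 change, MDD minus CTRL, of each of the 25 chains with the main values (black) and with quantile normalization, the authors' deposited table, the trends in gene length and signal removed, and the arrays of row 2 of the slide only. Lamb3 runs from 0.45 to 0.74 and Col11a2 from -0.79 to -0.44, while Col1a1, Col1a2, Col3a1, Col14a1 and Col18a1 have points on both sides of 0.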

How the data were processed

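Each deposited scanner file gives spot intensities on a linear scale, from Feature Extraction 10.7.3.1 with an array grid of the rat build rn4, per the file headers. Its processed intensity has background subtracted and spatial trends taken out, 1 array at a time. Also used were median spot and background intensities and the flags, scored 0 or 1, per the file headers. A further deposited table holds the authors' normalized intensities, whose scaling method the labels and file headers do not state. Its columns show the group and not the sample.

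Log2 processed signals were set relative to each array's 75th percentile (1140 to 2105 intensity units), after which spots of a probe were averaged without outlier spots. The filter kept 22255 of 30367 probes, those for which at least 50% of spots were well above background on 3 or more of the 7 arrays. The kept probe with the highest mean stood for a gene, which gave 19991 features, 11966 of them named. MDD was compared with CTRL by limma's two-sided test (version 3.58.1, R 4.3.3; lmFit and eBayes, 5 residual degrees of freedom, 8.39 with the prior), with Benjamini-Hochberg adjustment over all features. The code was tested on simulated data. The chains, gene lists and tests were chosen with earlier results of these data known. Array values are printed for chains that passed, for the 2 with the smallest p in classes where none did, and for Col4a1, Col1a1, Col1a2, Col3a1, Lamc1 and Lamb2; those of Col5a1 and Col2a1 were added after their values were seen. From each list of acting genes come up to 5 that passed, or the 1 with the smallest p. Col4a2, which the rule also names, had no matched probe. Alternatives were other scalings, backgrounds, filters and probe rules, the slide row, the replicate number as a block and leaving out each array. Replicate numbers were not taken to pair the arrays. The deviations of same-numbered arrays correlated at 0.09, -0.18 and 0.22. They were not set against those of differently numbered arrays, so they cannot decide whether the numbers pair.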

Additional observations from a re-analysis of the deposited data

Results flagged for a closer look

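With 4 arrays in the CTRL group, 38 genes were screened for a single array far from the rest, which chance would give in about 1 of 20 groups, and 3 chains stood out. For Col11a2, CTRL replicate 4 was highest at 0.10, against -0.29 for the next array. For Col23a1, CTRL replicate 1 was highest at -3.08, against -3.34. For Col26a1, CTRL replicate 1 was lowest at -2.02, against -1.30. Without the array in question the changes were -0.38, 0.26 and 0.52.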

How the results depend on the processing

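Under the 18 alternatives, 18 of the 25 chains kept the sign of their change and 7 did not. The count of chains called higher, 1 with the main values, was 2 with normexp, in the deposited table and with detection on all arrays, 3 with the trends in gene length and signal removed, and 0 with no filter, with the slide row as a block and in row 2 only. The count called lower, also 1, was 0 with quantile normalization, median scaling, no filter, the trends removed, the row as a block and row 2 only. Leaving out 1 array gave 0 to 2 higher and 0 to 1 lower. Over everything tested, the main values gave 2538 higher and 1543 lower of 19991. These counts ran from 799 to 2905 and from 223 to 2329 when 1 array was left out. No filter gave 1205 and 388 of 27455, and removing the trends 781 and 557 of 11965. Median scaling gave 2959 and 1389, and quantile normalization 2149 and 1461. Where calls fell for everything tested, a count of 0 chains cannot be read as particular to the chains. With the replicate number as a block 0 chains were higher and 0 lower, as for all 19991 features, and Lamb3 and Col11a2 had adjusted p = 0.1 and 0.167. The labels show no more than a shared number for these arrays.

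The fibrillar median of -0.36 was -0.28 with quantile normalization, -0.17 with normexp, -0.21 in the deposited table, -0.16 with the trends removed, -0.52 with the row as a block and in row 2, and -0.28 with the replicate block. It was 0.005 for collagen I and III alone (a division added after seeing the data), and -0.39 to -0.28 leaving out 1 array, -0.28 being without CTRL replicate 4. The medians of all 25 chains and of the basement membrane genes stayed within 1 SD over the 3 MDD arrays (0.14 and 0.27). Even so, the first went from -0.14 to -0.0861 without CTRL replicate 3, and the second from -0.18 to -0.0712 without MDD replicate 3. With normexp both were -0.0922, and with the trends removed -0.008.

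The sign turned for Col14a1 (0.12 with quantile normalization, 0.041 with median scaling, 0.0014 with normexp, 0.26 with the trends removed, 0.0127 with the replicate block) and Col18a1 (0.0424 with the trends removed). It also turned for Col1a1 (-0.12 with quantile normalization, normexp and the deposited table, -0.0933 with the mean of probes, -0.13 with the trends removed, -0.37 with the row as a block and in row 2). Col1a2 was -0.0116 with quantile normalization, -0.0251 with normexp, -0.025 in the deposited table and -0.11 with the row as a block and in row 2. Col3a1 was 0.0056 with median scaling, 0.0291 with the trends removed and 0.10 with the replicate block, and Col9a1 was -0.10 with the mean of probes. Leaving out 1 array at a time, the change ran from -0.0989 to 0.0627 for Col14a1, from -0.134 to 0.131 for Col1a1, from -0.257 to 0.102 for Col3a1, from -0.234 to 0.474 for Col7a1 and from -0.0763 to 0.165 for Col9a1. None of these values passed, and the cause was not tested. Low signal limits Col4a4, which was above background on 4 of 7 arrays.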
